A study of Mus musculus with 6 samples.

Results

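The genes described here are the 44 listed genes of fatty acid uptake, storage, synthesis and oxidation, chosen by symbol as rows of a deposited table of 24421 genes. They were measured by RNA sequencing in engineered muscle made from C2C12, an established mouse myoblast line that fuses into myotubes. The myoblasts were embedded in a type I collagen gel held by titanium tendons and then differentiated with horse serum. The constructs received TNF-alpha at 100 ng/mL or its vehicle, phosphate-buffered saline, for 72 h. Each group held 3 constructs, labelled as biological replicates. No genotype or treatment other than TNF-alpha separates the groups in the labels. The labels name no cell other than this line. They do not say whether the constructs trace back to separate cultures, so each p-value reflects only how far these 6 constructs differed and may be technical in part.

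Muscle takes up fatty acids released from lipoproteins by lipoprotein lipase, with help from the surface transporter CD36, and carries them in the cytosol on fatty acid-binding proteins. Acyl-CoA synthetases activate them. The activated fatty acids are either esterified into triglyceride droplets coated by perilipins or passed through the carnitine palmitoyltransferases into mitochondria, where beta-oxidation shortens them. Synthesis runs the other way, from cytosolic acetyl-CoA through malonyl-CoA to palmitate, which is then elongated and desaturated. TNF-alpha is known for lowering lipoprotein lipase in fat cells.

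Transcripts of the uptake genes Cd36, Lpl and Fabp5 were lower in the TNF-alpha constructs, and those of the droplet coat protein Plin2 and the desaturase Scd2 were about doubled. Among beta-oxidation genes the 3 carnitine palmitoyltransferases rose, 7 others fell and 5 were not past the test. Of the 44 genes, 43 passed the filter on low counts and entered the test. Of these, 10 rose and 18 fell, while 15 did not pass (edgeR, quasi-likelihood; Benjamini-Hochberg adjusted p below 0.05 over all genes). The 28 called genes are 65.1% of the 43. Over all 15792 genes tested, 55.5% were called, 27.6% as risen and 27.9% as fallen, so the share of called fatty acid genes lies near the background. The median log2 fold change (TNF-alpha over vehicle) was -0.12 in the 43 genes and 0.00 over all genes. The median absolute log2 fold change was 0.31, against 0.36 over all genes. At least 2-fold changes were found in 5 of the 43 genes, where 17.9% of all genes had one. In 31 of the 43 the 3 TNF-alpha libraries lay wholly above or below the 3 vehicle libraries, as in 64.5% of all genes tested.

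By class, 2 of 10 uptake and activation genes rose and 6 fell (median log2 fold change -0.44). Among 8 tested storage and lipolysis genes 4 rose and 2 fell (median 0.18). Of the 10 synthesis genes 1 rose and 3 fell (median -0.16). Of the 15 beta-oxidation genes 3 rose and 7 fell (median -0.12). Called genes were thus 8 of 10 for uptake, 6 of 8 for storage, 4 of 10 for synthesis and 10 of 15 for beta-oxidation, to be read against 55.5% of all genes. Per kilobase of exon, mean vehicle levels ran from 0.00362 ± 0.00315 CPM for Plin5 to 105 ± 16.3 CPM for Scd2 (SD, n = 3). In summed counts the order differed from the gene counts. Storage genes took 0.0394% ± 0.0019 of a vehicle library and 0.0558% ± 0.0031 of a TNF-alpha library (SD, n = 3). Most of this rise was that of Plin2, with means of 156.3 and 322.2 CPM. Synthesis genes went from 0.159% ± 0.018 to 0.204% ± 0.0045, a sum in which Scd1 and Scd2 weigh most. The synthesis rise was that of Scd2 (572.2 and 1119 CPM), as Scd1 had 371.5 and 358.8 CPM. Uptake genes went from 0.0627% ± 0.0027 to 0.0521% ± 0.0036 and beta-oxidation genes from 0.117% ± 0.0012 to 0.106% ± 0.0023.

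**Figure D1:**
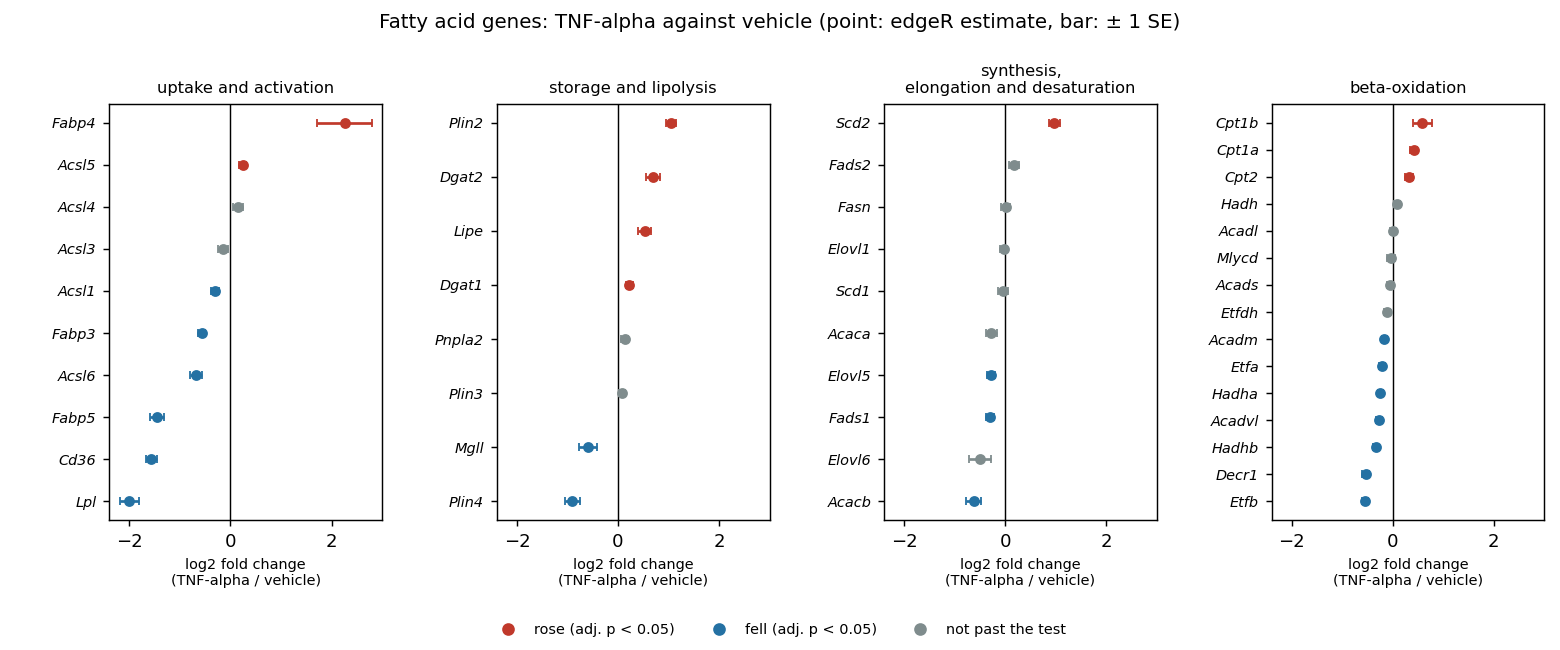
Log2 fold change of TNF-alpha over vehicle (x axis) for the 43 tested genes, in 4 panels by role. Points are edgeR estimates and bars 1 standard error, with colour giving the call. Lpl, Cd36 and Fabp5 lie farthest left, and Plin2 and Scd2 stand apart to the right in their panels.

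The largest falls among the 43 genes were in genes that bring fatty acids to and into the cell. Levels are given as CPM, the count scaled to the library's size with TMM factors. Cd36, encoding the fatty acid translocase (chromosome 5, 17781690 to 17888801, minus strand on GRCm38), had 48.8, 60.3 and 64.0 CPM in the vehicle libraries and 18, 19.6 and 21 CPM with TNF-alpha. All 3 treated libraries lay far below the lowest vehicle library. Cd36 fell 2.96-fold (log2 fold change -1.56 ± 0.11 SE, edgeR adjusted p = 8.70e-06). Lpl, encoding the lipase that frees fatty acids from lipoproteins (chromosome 8, 68880491 to 68907448, plus strand), had 36.0, 21.7 and 25.0 CPM with vehicle and 6.15, 7.32 and 7.21 CPM with TNF-alpha. Vehicle library 1 was the highest for Lpl, and the groups did not overlap. Lpl fell 4.0-fold (-2.00 ± 0.19, adjusted p = 9.96e-05). Its counts carried decimals in all 6 libraries, so its reads may be split with other features.

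The fatty acid-binding proteins did not move together. Fabp5, the epidermal type (chromosome 3, 10012548 to 10016607, plus strand), had 25.3, 17.7 and 24.6 CPM with vehicle and 7.92, 8.38 and 8.50 CPM with TNF-alpha. Vehicle library 2 was the lowest of its group and still more than any treated library. Fabp5 fell 2.73-fold (-1.45 ± 0.14, edgeR adjusted p = 4.27e-05). Fabp3, the muscle and heart type, fell by less, from 36.3 ± 2.51 to 24.4 ± 0.489 CPM (SD, n = 3; -0.57 ± 0.07, adjusted p = 0.000178). Fabp4, the adipocyte and macrophage type, rose. Its vehicle libraries had 15, 2 and 10 counts and its TNF-alpha libraries 36, 44 and 49 (log2 fold change 2.26 ± 0.54, adjusted p = 0.00697). It passed the low-count filter mainly through the treated libraries, and its fold change of 4.80 became 7.48 without vehicle replicate 1. Per kilobase of exon, vehicle libraries held 44.1 ± 3.05 CPM of Fabp3, 6.32 ± 1.18 of Fabp5 and 0.0230 ± 0.0177 of Fabp4, so the gene that rose was the scarcest of the 3.

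The Acsl genes encode synthetases that attach coenzyme A to long-chain fatty acids. Acsl6 fell by 0.68 ± 0.12 on the log2 scale, from 39.9 ± 6.61 to 24.9 ± 1.33 CPM (edgeR adjusted p = 0.00125). Acsl1, the main form of muscle and fat, had 40.4, 42.7 and 38.3 CPM with vehicle and 33.7, 29.8 and 34.4 CPM with TNF-alpha. It fell 1.24-fold (adjusted p = 0.00773). Acsl5 had 63.0, 55.8 and 59.6 CPM with vehicle and 72.2, 72.5 and 66.5 CPM with TNF-alpha, a rise of 1.18-fold (adjusted p = 0.0125). Leaving out vehicle replicate 2 gave Acsl5 an adjusted p of 0.0504 (alternatives 0.00483 to 0.0504). The groups overlapped for Acsl4, which prefers arachidonic acid, with 186, 178 and 156 CPM and 170, 218 and 186 CPM (log2 fold change 0.15 ± 0.10, adjusted p = 0.255). They overlapped for Acsl3 as well, a synthetase of lipid droplets and the endoplasmic reticulum, with 164 ± 18.3 and 148 ± 13.6 CPM (-0.15 ± 0.10, adjusted p = 0.22). Leaving out vehicle replicate 3 gave Acsl3 an adjusted p of 0.0425 (alternatives 0.0425 to 0.475). The within-library log2 ratio of Acsl1 to Acsl4 went from -2.09 ± 0.09 to -2.55 ± 0.28, a difference of -0.45 (two-sided exact permutation test, p = 0.1, the lowest value 3 libraries against 3 can reach, and 0.2 adjusted over 6 pairs). This difference was -0.29 without TNF-alpha replicate 2.

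In bulk RNA, fewer cells of a type and less RNA per cell cannot be told apart. Muscle marker transcripts were abundant in both groups. Of 9 muscle markers examined beside these genes, 7 fell and 1 rose, and their summed level was 13370 to 15270 CPM in vehicle and 8672 to 9857 CPM in TNF-alpha libraries. The marker counts here are to be read against all genes tested, of which 27.6% rose and 27.9% fell. The 6 fibroblast-type markers, of which 2 rose and 4 fell, summed to 8505 to 9021 and 10440 to 11520 CPM. The higher sum was that of Dcn, with means of 2029 and 6022 CPM, while Col3a1 had 6258 and 4606 CPM. The 6 adipocyte markers had at most 18 counts in any library, and Lep, encoding leptin, was at 0 in all 6. Of the 6 macrophage markers, the defining Ptprc and Adgre1 had 0 to 4 and 0 to 2 counts per library, while Cd68, Csf1r and Lyz2 rose. Csf1r had only 20 to 144 counts per library and Lyz2 9 to 36. Itgam was lower on average and not past the test (means of 0.306 and 0.204 CPM, edgeR adjusted p = 0.259). The sum of all 6 went from 5.39 to 5.67 CPM up to 21 to 22.8 CPM, most of it Cd68 (means of 4.81 and 19.85 CPM). The 6 endothelial markers summed to 4.41 to 6.20 and 4.34 to 4.99 CPM. The part of these marker changes in the fatty acid gene changes, Fabp4 and the macrophage markers included, was not tested.

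Among storage genes the droplet coat proteins diverged. Plin2, the perilipin that coats lipid droplets in most cells (chromosome 4, 86648386 to 86670060, minus strand), had 174, 140 and 154 CPM with vehicle and 339, 290 and 338 CPM with TNF-alpha. Every treated library was well above every vehicle library. Plin2 rose 2.06-fold (1.04 ± 0.10, edgeR adjusted p = 3.50e-05). Plin4 (chromosome 17, 56100591 to 56109803, minus strand), a perilipin of fat and muscle, had 21.5, 18.7 and 18.8 CPM with vehicle and 8.56, 9.98 and 13.1 CPM with TNF-alpha. Treated library 3 was the highest of its group and still below the vehicle range. Plin4 fell 1.87-fold (-0.90 ± 0.15, adjusted p = 0.00113). Plin3, a widely expressed perilipin, had 113 ± 3.04 and 119 ± 3.33 CPM (adjusted p = 0.245). Plin5, the perilipin of oxidative muscle, had 0 to 6 counts per library and was not tested. Its neighbour Plin4 lies 1797 bases away. Per kilobase of exon, Plin2 was the most abundant of the storage genes, at 44.5 ± 4.86 CPM with vehicle and 91.8 ± 7.96 CPM with TNF-alpha.

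The upstream stretches of Cd36 and Plin2 are printed because Cd36 fell and Plin2 rose with no overlap between groups. Each is the 250 bases before the RefSeq start site on GRCm38.p6, read on the gene's strand. The coordinates are chr5:17835897-17836146 (minus strand) and chr4:86670060-86670309 (minus strand). The Cd36 stretch lies inside the GENCODE span of the gene, which on the minus strand begins at 17888801. Capitals mark CCAAT and the GC box GGGCGG, both searched on either strand with the other motifs named after the sequences.
Cd36: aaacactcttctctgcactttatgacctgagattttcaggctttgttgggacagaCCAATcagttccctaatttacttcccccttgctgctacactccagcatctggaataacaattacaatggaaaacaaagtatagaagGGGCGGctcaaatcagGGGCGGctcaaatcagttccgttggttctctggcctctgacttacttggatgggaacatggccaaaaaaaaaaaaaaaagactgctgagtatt
Plin2: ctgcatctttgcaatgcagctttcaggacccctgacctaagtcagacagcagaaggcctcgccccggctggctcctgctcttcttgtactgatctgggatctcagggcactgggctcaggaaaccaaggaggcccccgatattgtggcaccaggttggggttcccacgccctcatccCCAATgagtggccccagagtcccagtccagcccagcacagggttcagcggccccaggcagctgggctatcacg
Cd36 held 1 CCAAT and 2 GC boxes, and Plin2 held 1 CCAAT. RefSeq windows from 250 bases before to 50 after the start site were found for 34 of the 44 genes, in 41 windows. CCAAT was present in 48.8% of these windows and in 37.4% of all 32851 windows, and the GC box in 65.9% and 35.7%. A sterol regulatory element (ATCAC and CCAC with 1 base between) was in 0 of the 41 windows and 0.234% of all windows. A PPAR element (AGGTCA repeated with 1 base between) was in 0 and 0.0396%. The estrogen-related receptor element TCAAGGTCA was in 1 window, of Acsl6, and in 0.423% of all. A match to the NF-kB consensus was found in 4 windows, of Acacb, Etfa, Fads2 and Pnpla2, and in 4.51% of all windows. These matches describe letters in short windows and say nothing of binding.

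Both acyltransferases of the last step of triglyceride synthesis rose. Dgat2 (chromosome 7, 99153658 to 99182719, minus strand) had 4.25, 4.31 and 5.46 CPM with vehicle and 8.46, 7.18 and 6.99 CPM with TNF-alpha (0.69 ± 0.14, edgeR adjusted p = 0.00292). Dgat1 (chromosome 15, 76502015 to 76511953, minus strand) had 37.7, 37.0 and 37.4 CPM and 46.1, 41.0 and 44.1 CPM (0.23 ± 0.06, adjusted p = 0.0137). The groups did not overlap for either gene. Without TNF-alpha replicate 3 the Dgat1 adjusted p was 0.0525 (alternatives 0.00552 to 0.0525). The within-library log2 ratio of Dgat1 to Dgat2 went from 3.00 ± 0.20 to 2.54 ± 0.11, a difference of -0.47 (two-sided exact permutation test, p = 0.1, the smallest possible, and 0.2 adjusted over 6 pairs).

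The lipases that empty the droplet moved in different directions. Lipe, the hormone-sensitive lipase that splits diglycerides, had 4.76, 5.23 and 5.43 CPM with vehicle and 6.58, 7.84 and 7.81 CPM with TNF-alpha. The lowest treated library exceeded the highest vehicle library, a rise of 1.44-fold (0.53 ± 0.12, edgeR adjusted p = 0.00514). Pnpla2, encoding ATGL, which takes the first fatty acid from triglyceride, had 40.9 ± 2.56 and 44.9 ± 0.482 CPM (0.13 ± 0.06, adjusted p = 0.105). Mgll, which splits monoglycerides, had 10.8, 16.9 and 10.7 CPM with vehicle and 8.15, 8.30 and 9.07 CPM with TNF-alpha (-0.59 ± 0.18, adjusted p = 0.022). Vehicle library 2 was the highest for Mgll. Without that library the log2 fold change was -0.34. The Mgll adjusted p was 0.0742 without TNF-alpha replicate 1 and 0.0676 without TNF-alpha replicate 2 (alternatives 0.00325 to 0.0742).

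**Figure D2:**
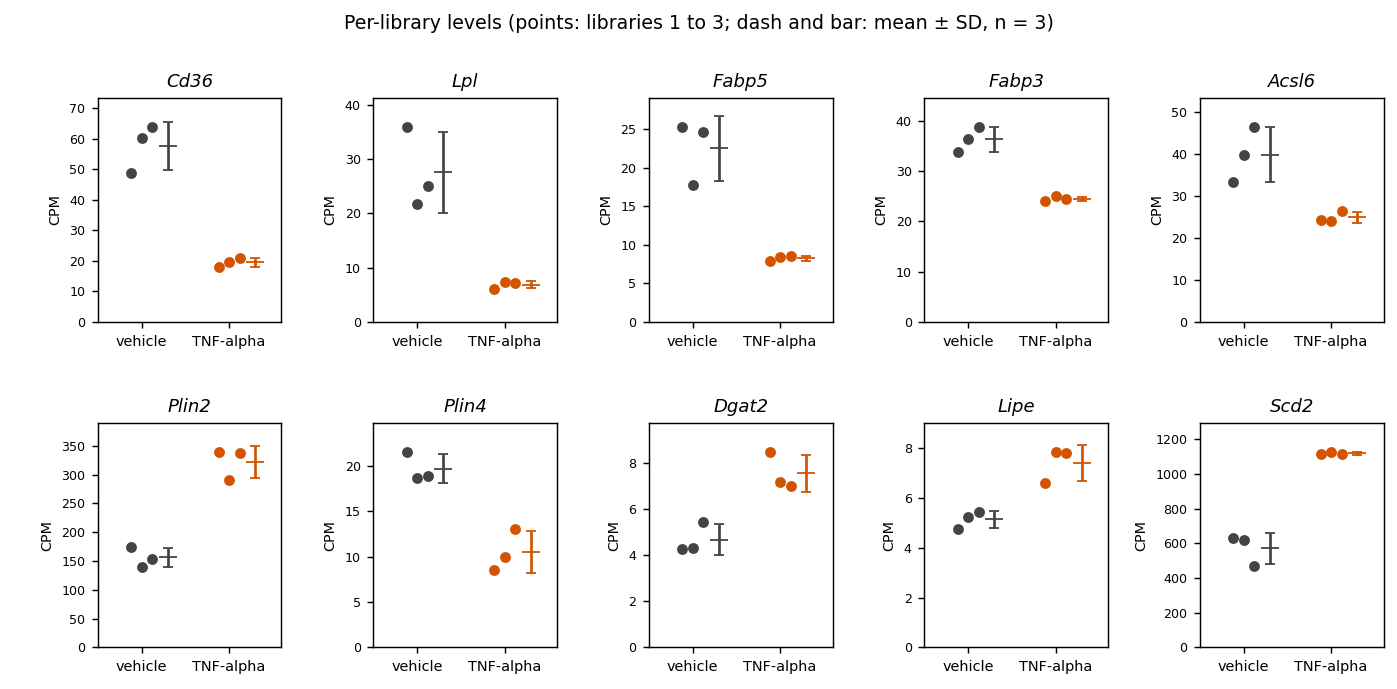
Levels in CPM (y axis, from 0) of 10 genes of uptake, storage and desaturation in each vehicle and TNF-alpha library. Points are libraries, dashes and bars mean ± SD (n = 3). Cd36, Lpl, Fabp5, Fabp3, Acsl6 and Plin4 are lower and Plin2, Dgat2, Lipe and Scd2 higher in all 3 treated libraries, with no overlap.

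The other storage genes gave a wider view of the droplet. Of 17 tested, 9 rose and 3 fell (median log2 fold change 0.31), or 70.6% called against 55.5% of all genes. This list and those below were assembled with earlier results of these data known. Hilpda, an inhibitor of ATGL found on droplets, had 10.6, 9.02 and 10.3 CPM with vehicle and 119, 102 and 113 CPM with TNF-alpha. It rose 11.2-fold (3.48 ± 0.09, edgeR adjusted p = 4.27e-08). G0s2, another ATGL inhibitor, fell 4.54-fold, from 22.7 ± 1.37 to 5.00 ± 1.42 CPM (adjusted p = 5.43e-05). The 2 inhibitors of the same lipase thus moved in opposite directions, and the ATGL co-activator Abhd5, named after its values were seen, rose 1.21-fold (adjusted p = 0.00741). The phosphatidate phosphatase gene Lpin1 rose from 19.6 ± 1.44 to 41.4 ± 5.05 CPM (1.08 ± 0.10, adjusted p = 3.67e-05), while Lpin3 fell by 0.34 ± 0.07 (adjusted p = 0.00322). The acyltransferases of the glycerol backbone Gpat3, Gpat4, Agpat1 and Agpat2, also named after their values were seen, rose by 0.65, 0.29, 0.46 and 0.44 on the log2 scale. Gpam and Agpat3, acyltransferases of the same list, were not past the test (0.19 ± 0.08, adjusted p = 0.0837, and -0.11 ± 0.05, adjusted p = 0.0957). Gpat3 and Gpat4 were found under the older symbols Agpat9 and Agpat6.

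Beyond the listed uptake genes, 6 of 10 tested genes rose and 0 fell, where 27.6% of all genes rose and 27.9% fell. The 60.0% called lie near the 55.5% of all genes. At an unadjusted p under 0.05, and by DESeq2 and limma-voom, 0 fell as well, while 1 (Got2) fell without vehicle replicate 3. Angptl4, a secreted inhibitor of lipoprotein lipase, had 37.4, 34.2 and 54.7 CPM with vehicle and 511, 447 and 493 CPM with TNF-alpha. It rose 11.5-fold (3.52 ± 0.19, edgeR adjusted p = 9.70e-06), in the constructs in which Lpl itself fell. Vldlr, a lipoprotein receptor, rose from 69.1 ± 6.34 to 156 ± 18.6 CPM (1.18 ± 0.10, adjusted p = 2.74e-05). Gpihbp1, which anchors the lipase on endothelium, had 0 counts in all 6 libraries. The fatty acid transport protein gene Slc27a4, named after its values were seen, rose 1.66-fold (adjusted p = 5.43e-05), and Slc27a1, the muscle form, had 179 ± 18.1 and 204 ± 7.71 CPM (adjusted p = 0.0696). Cd36 and Slc27a4 therefore changed in opposite directions.

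Among the 10 listed synthesis genes, only the desaturase Scd2 rose by edgeR. Some synthesis genes outside these, given further below, rose by a similar factor. Scd2 (chromosome 19, 44293674 to 44306864, plus strand), which introduces the first double bond, had 628, 619 and 470 CPM with vehicle and 1118, 1126 and 1113 CPM with TNF-alpha. The 3 treated libraries were within a narrow band far above the vehicle libraries, of which the third was lowest. Scd2 rose 1.96-fold (0.97 ± 0.11, edgeR adjusted p = 0.000119). Scd1 (chromosome 19, 44394455 to 44407879, minus strand), 87.6 kb away and encoding the same activity, had 424, 356 and 335 CPM and 333, 387 and 357 CPM, and its groups overlapped (-0.05 ± 0.10, adjusted p = 0.69). The within-library log2 ratio of Scd1 to Scd2 went from -0.62 ± 0.16 to -1.64 ± 0.10, a difference of -1.03 (two-sided exact permutation test, p = 0.1, the smallest possible, and 0.2 adjusted over 6 pairs). Both genes carried decimal counts in all 6 libraries, so reads shared among the Scd paralogs may be split between them. Per kilobase of exon, Scd2 was the most abundant of the 10 listed synthesis genes, at 105 ± 16.3 CPM with vehicle and 205 ± 1.25 with TNF-alpha.

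The enzymes that build palmitate were not past the test. Fasn, encoding fatty acid synthase, had 225 ± 16.0 and 227 ± 22.9 CPM (log2 fold change 0.01 ± 0.09, edgeR adjusted p = 0.945). Acaca, the acetyl-CoA carboxylase that feeds synthesis, had 81.2, 79.3 and 71.7 CPM with vehicle and 52.9, 68.6 and 70.1 CPM with TNF-alpha. All 3 treated values were below the vehicle values, without passing the test (-0.28 ± 0.11, adjusted p = 0.0593). The Acaca adjusted p was 0.0382 with upper-quartile scaling, 0.0412 with DESeq2 and 0.048 without TNF-alpha replicate 3 (alternatives 0.0382 to 0.163). Acacb, the mitochondrial carboxylase whose malonyl-CoA restrains carnitine palmitoyltransferase, had 3.29, 4.15 and 3.69 CPM and 2.43, 2.38 and 2.39 CPM. It fell 1.55-fold (-0.63 ± 0.14, adjusted p = 0.0051). The log2 ratio of Acaca to Acacb went from 4.38 ± 0.21 to 4.71 ± 0.24 (two-sided exact permutation test, p = 0.2, and 0.3 adjusted over 6 pairs).

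Of the elongases and the front-end desaturases, 2 fell and none rose by edgeR. Elovl5, an elongase of polyunsaturated fatty acids, had 64.1, 55.9 and 55.4 CPM with vehicle and 48.4, 49.3 and 46.3 CPM with TNF-alpha (-0.28 ± 0.07, adjusted p = 0.00888). Fads1, the delta-5 desaturase, had 115, 103 and 98.5 CPM and 79.2, 92.3 and 84.5 CPM (-0.31 ± 0.08, adjusted p = 0.01). In both genes the highest treated library was below the lowest vehicle library. Fads2, the delta-6 desaturase 81.1 kb from Fads1, had 57.5 ± 7.00 and 64.6 ± 3.71 CPM (0.17 ± 0.09, adjusted p = 0.147). Leaving out vehicle replicate 1 gave Fads2 an adjusted p of 0.0293 (alternatives 0.0293 to 0.431), as a rise. Elovl6, which extends palmitate to stearate, had 27.1 ± 6.03 and 19.2 ± 4.60 CPM (-0.50 ± 0.22, adjusted p = 0.0962). The Elovl6 adjusted p was 0.0235 with DESeq2, 0.0262 without vehicle replicate 3 and 0.0343 without TNF-alpha replicate 2 (alternatives 0.0235 to 0.263). Elovl1, an elongase of very long chains, had 71.2 ± 0.864 and 69.6 ± 5.28 CPM (adjusted p = 0.694).

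Of 17 other synthesis genes tested, 8 rose and 1 fell (median log2 fold change 0.19). The 52.9% called lie near the 55.5% of all genes, of which 27.6% rose and 27.9% fell. Slc25a1, the citrate carrier of the mitochondrial membrane, had 39.2, 40.3 and 37.7 CPM with vehicle and 72.2, 82.7 and 76.9 CPM with TNF-alpha (0.98 ± 0.07, edgeR adjusted p = 6.51e-06). Acly, which splits citrate into acetyl-CoA in the cytosol, had 147, 139 and 138 CPM and 254, 259 and 278 CPM (0.90 ± 0.06, adjusted p = 7.53e-06). Each was nearly doubled in all 3 treated libraries. Acss2, which makes acetyl-CoA from acetate, and the NADPH-producing malic enzyme gene Me1 were named after their values were seen. Acss2 rose 2.07-fold (adjusted p = 1.35e-05) and Me1 2.00-fold (adjusted p = 1.50e-05). The gene that fell was Hacd1, a dehydratase of muscle that acts in elongation (-0.21 ± 0.06, adjusted p = 0.0182). Hacd1 had an adjusted p of 0.0535 without vehicle replicate 1, 0.0561 without vehicle replicate 2 and 0.0722 without TNF-alpha replicate 3 (alternatives 0.00898 to 0.0722). Hacd3 and Hsd17b12 of the same list, named after their values were seen, rose by 0.81 ± 0.07 and 0.73 ± 0.07. Their edgeR adjusted p was 2.53e-05 and 4.73e-05. Hacd2 and Tecr were not past the test (edgeR adjusted p = 0.22 and 0.16).

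**Figure D3:**
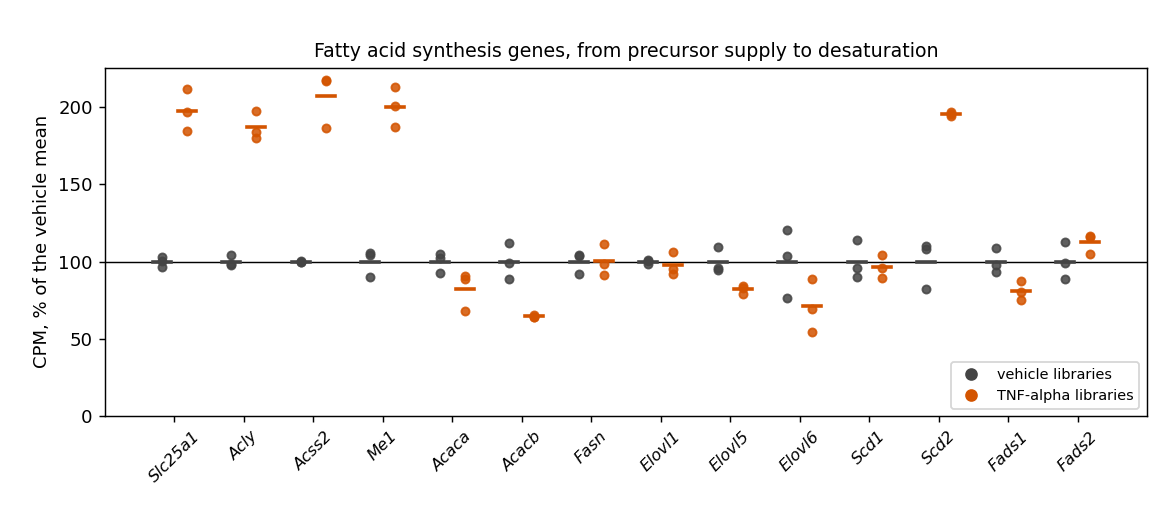
Levels of 4 precursor supply genes and 10 synthesis, elongation and desaturation genes, as CPM in percent of each gene's vehicle mean (y axis). Points are libraries and short lines group means (n = 3). Slc25a1, Acly, Acss2, Me1 and Scd2 lie near 200% in the treated libraries, while Fasn and Scd1 lie near 100% and Acacb near 65%.

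The 3 carnitine palmitoyltransferases, which carry long-chain acyl groups into the mitochondrion, all rose by edgeR. Cpt1a (chromosome 19, 3322334 to 3385733, plus strand), the form of liver and of most cells, had 94.9, 86.7 and 97.1 CPM with vehicle and 129, 114 and 128 CPM with TNF-alpha. It rose 1.33-fold (0.41 ± 0.07, edgeR adjusted p = 0.00121). Cpt2 (chromosome 4, 107903981 to 107923610, minus strand), the inner-membrane enzyme, had 25.4, 27.5 and 25.4 CPM and 30.4, 31.8 and 35.6 CPM (0.32 ± 0.08, adjusted p = 0.0074). Both genes were higher in every treated library than in any vehicle library. Cpt1b, the adult muscle form, had 1.90, 2.46 and 3.01 CPM and 3.99, 3.72 and 3.32 CPM (0.58 ± 0.19, adjusted p = 0.0263). The Cpt1b adjusted p was 0.079 without vehicle replicate 1, 0.0671 without vehicle replicate 2, 0.0707 without TNF-alpha replicate 1 and 0.062 without TNF-alpha replicate 2 (alternatives 0.00989 to 0.079).

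Cpt1b needs care for another reason. In GENCODE M21 94.8% of its exonic bases also belong to a readthrough gene. The deposited table lists such a Chkb and Cpt1b readthrough separately with 3680 to 4585 counts per library, against 158.5 to 373 for Cpt1b. Chkb itself had 3557 to 4286 counts, close to the readthrough in each library. Reads of Cpt1b may therefore be split with the readthrough, and the Cpt1b level here may be a partial count. Per kilobase of exon, Cpt1a had 12.2 ± 0.717 CPM and Cpt1b 0.728 ± 0.165 CPM with vehicle. The log2 ratio of Cpt1a to Cpt1b went from 5.25 ± 0.33 to 5.07 ± 0.17, with overlapping libraries (two-sided exact permutation test, p = 0.6, and 0.72 adjusted over 6 pairs).

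Mitochondrial enzymes and electron carriers made up the 7 falls. Etfb, the beta subunit of the electron transfer flavoprotein (chromosome 7, 43444083 to 43457800, plus strand), had 38.6, 37.2 and 37.7 CPM with vehicle and 27.3, 23.9 and 26.2 CPM with TNF-alpha. It fell 1.47-fold (-0.55 ± 0.07, edgeR adjusted p = 0.000187). Decr1, the reductase needed for unsaturated fatty acids (chromosome 4, 15917240 to 15945507, minus strand), had 45.2, 44 and 47.8 CPM and 32.6, 29.2 and 32.6 CPM (-0.54 ± 0.07, adjusted p = 0.000235). In both genes the highest treated library lay well below the lowest vehicle library. In GENCODE M21 69.1% of the exonic bases of Etfb also belong to a predicted gene, Gm45233, on the same strand. Acadvl, the very long-chain dehydrogenase, fell by 0.27 ± 0.06, from 129 ± 4.60 to 106 ± 5.18 CPM (adjusted p = 0.00473), and 45% of its exonic bases overlap Dvl2 on the opposite strand. Acadm, the medium-chain dehydrogenase, fell by 0.17 ± 0.05, from 82.1 ± 1.23 to 73.2 ± 0.829 CPM (adjusted p = 0.0219). The Acadm adjusted p was 0.0587 without vehicle replicate 1 and 0.0793 without TNF-alpha replicate 3 (alternatives 0.00991 to 0.0793). Etfa, the alpha partner of Etfb, fell by 0.21 ± 0.06, from 92.5 ± 5.44 to 80 ± 2.96 CPM (adjusted p = 0.0205). The Etfa adjusted p was 0.0692 without vehicle replicate 1, 0.0518 without vehicle replicate 2 and 0.0529 without TNF-alpha replicate 1 (alternatives 0.0106 to 0.0692).

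The 2 subunits of the mitochondrial trifunctional protein, which carries out the last 3 steps of long-chain oxidation, both fell. Hadha, the alpha subunit (chromosome 5, 30118304 to 30155162, minus strand), had 178, 181 and 174 CPM with vehicle and 150, 152 and 146 CPM with TNF-alpha (-0.25 ± 0.05, edgeR adjusted p = 0.00424). Hadhb, the beta subunit (chromosome 5, 30155248 to 30184593, plus strand), had 106, 107 and 99.6 CPM with vehicle and 82.7, 82.7 and 81.9 CPM with TNF-alpha (-0.34 ± 0.05, adjusted p = 0.000814). The groups did not overlap for either subunit. The 2 genes are transcribed away from each other, and their RefSeq start sites have 272 bases between them. Their GENCODE spans have 85 bases between them, so part of the stretch below lies inside GENCODE Hadha. The stretch the 2 genes share is printed as the 250 bases before the Hadhb RefSeq start site (chr5:30155003-30155252, plus strand, GRCm38.p6), with GC boxes (GGGCGG) in capitals.
Hadhb: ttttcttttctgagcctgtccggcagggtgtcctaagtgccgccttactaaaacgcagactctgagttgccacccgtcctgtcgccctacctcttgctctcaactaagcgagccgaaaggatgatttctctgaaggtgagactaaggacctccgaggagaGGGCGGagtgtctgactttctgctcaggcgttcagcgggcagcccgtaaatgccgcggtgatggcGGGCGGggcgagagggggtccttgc
It held 2 GC boxes and no CCAAT, sterol regulatory, PPAR, estrogen-related receptor or NF-kB match.

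The remaining 5 beta-oxidation genes were not past the test. Acadl, the long-chain dehydrogenase and per kilobase the most abundant of the 15 at 76.1 ± 2.84 CPM, had 153 ± 5.69 CPM with vehicle and 153 ± 2.91 CPM with TNF-alpha (log2 fold change 0.00 ± 0.06, edgeR adjusted p = 0.999). Acads, the short-chain dehydrogenase, had 62.4 ± 2.97 and 59.9 ± 0.937 CPM (adjusted p = 0.42). Hadh, the short-chain hydroxyacyl dehydrogenase, had 67.6 ± 2.02 and 71.3 ± 4.13 CPM (adjusted p = 0.32). Among the 4 chain-length dehydrogenases, then, Acadvl and Acadm fell and Acadl and Acads were not past the test, and these differences between genes were not tested. Etfdh, which passes the electrons on to ubiquinone, had 63.5 ± 3.31 and 58.4 ± 2.06 CPM (adjusted p = 0.129). Mlycd, which destroys malonyl-CoA, had 18.5 ± 0.753 and 18.1 ± 0.481 CPM (adjusted p = 0.699).

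**Figure D4:**
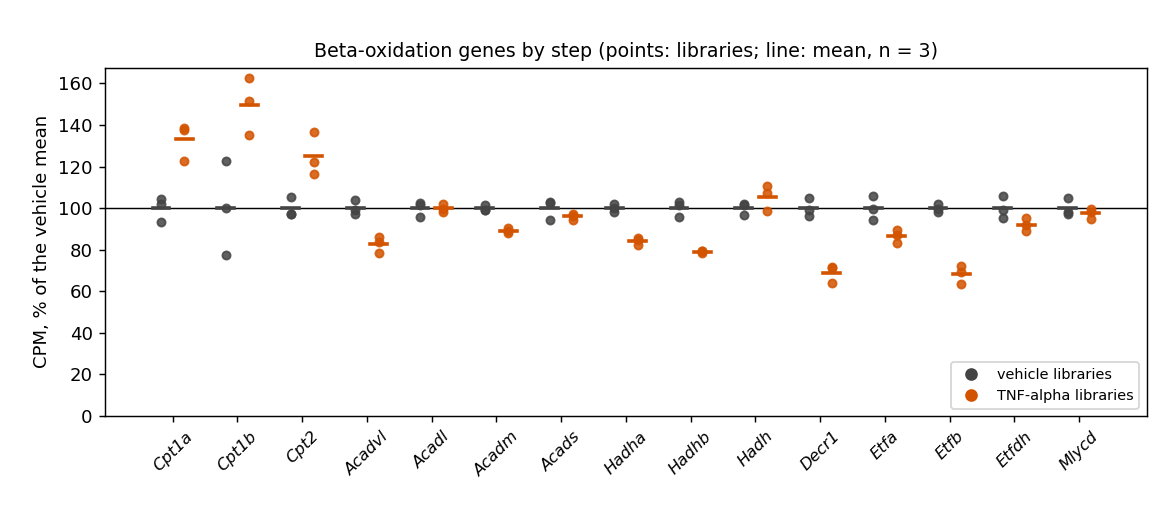
Levels of the 15 beta-oxidation genes as CPM in percent of each gene's vehicle mean (y axis), from mitochondrial entry on the left to electron transfer, with Mlycd last. Points are libraries and short lines group means (n = 3). The 3 Cpt genes lie above 100% in all treated libraries, and Decr1 and Etfb lie lowest, near 70%.

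Of 24 other oxidation genes tested, 10 fell and 3 rose, while 11 did not pass (median log2 fold change -0.13). The 54.2% called lie near the 55.5% of all genes. Acat1, a thiolase of ketone and isoleucine metabolism, fell from 43.1 ± 1.79 to 25.6 ± 1.72 CPM (-0.75 ± 0.07, edgeR adjusted p = 3.93e-05). Ucp2, a mitochondrial carrier, had 74.3, 85.9 and 65.5 CPM with vehicle and 16.7, 23.4 and 23.0 CPM with TNF-alpha, a fall of 3.58-fold (adjusted p = 5.69e-05). Echs1 and Acaa2, the enoyl-CoA hydratase and the thiolase of the short-chain spiral, were named after their values were seen. They fell 1.76-fold and 1.5-fold (adjusted p = 0.000228 and 8.54e-05). Among the genes that rose were Acot2, a mitochondrial acyl-CoA thioesterase (0.56 ± 0.11, adjusted p = 0.00198), and Decr2, the peroxisomal counterpart of Decr1 (0.56 ± 0.12, adjusted p = 0.00317). Slc25a20, the carnitine carrier that works between Cpt1 and Cpt2, had 19.7 ± 0.951 and 17.7 ± 1.70 CPM (adjusted p = 0.187). Leaving out TNF-alpha replicate 1 gave it an adjusted p of 0.0488, as a fall. Crat, which moves short acyl groups onto carnitine and was named after its values were seen, fell 1.29-fold (adjusted p = 0.000593).

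Transcription factors and co-factors of lipid metabolism also moved both ways. Of 18 tested, 8 rose and 5 fell (median log2 fold change 0.04), or 72.2% called against 55.5% of all genes. Without 1 library the risen numbered 6 to 7 and the fallen 4 to 5. Ppard, the PPAR form common in muscle, had 36.6, 42.6 and 40.1 CPM with vehicle and 143, 162 and 170 CPM with TNF-alpha. It rose 3.98-fold (1.99 ± 0.08, edgeR adjusted p = 5.92e-07). Pparg, the PPAR form of fat cells, fell from 7.63 ± 0.851 to 4.79 ± 0.331 CPM (-0.67 ± 0.12, adjusted p = 0.00173), while Ppara, the liver form, had under 1 CPM in every library (-0.29 ± 0.36, adjusted p = 0.517). Ppargc1a, the co-activator of mitochondrial genes, had 7.75, 6.90 and 5.14 CPM and 3.08, 2.88 and 3.37 CPM, a fall of 2.12-fold (adjusted p = 0.000665). Insig2, which holds SREBP precursors in the endoplasmic reticulum, rose from 79.3 ± 6.32 to 154 ± 5.19 CPM (0.96 ± 0.07, adjusted p = 1.05e-05). Srebf1, encoding the lipogenic SREBP, was named after its values were seen and rose 1.34-fold (adjusted p = 0.00238).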

How the data were processed

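RNA sequencing counts of 6 libraries (3 vehicle, 3 TNF-alpha) were used, with groups and replicate numbers from the sample titles and columns matched by library name. The values the authors deposited are estimated counts per gene: 20.1% to 21% of values per library carry decimals, although the series' own description speaks of whole numbers. The submitters' processing notes list TopHat2 2.1.1, Bowtie2 2.3.5.1, featureCounts of Subread 2.0.0 and DESeq2, with the builds mm10 and GRCm38 and no roles. How reads were counted, and whether by strand, is not given in the sources used here, so overlapping genes and paralogs are uncertain. Libraries held 81712956 to 93533661 counts.

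Counts were rounded, filtered with filterByExpr, scaled with TMM and tested with edgeR 4.0.16 (R 4.3.3; glmQLFit with robust estimation, group as the only term, Benjamini-Hochberg over all genes tested). Standard errors come from the F statistic. Isoform ratios used log2 CPM with a prior count of 2 and an exact two-sided permutation test. Replicates differed by more than sampling noise (chi-square per degree of freedom 22.9 to 70.1), so each was counted. The script was tested on simulated counts. Positions and exon lengths are from GENCODE M21 (GRCm38) and upstream sequences from RefSeq (GRCm38.p6).

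The members and lists were chosen with earlier results of these data known. Library values are given for up to 3 risen and 3 fallen genes per class with the smallest p and at least 1 CPM in a group, and for isoform pairs. Of each further list, the 2 risen and 2 fallen genes with the smallest p and at least 1 CPM in a group are named. Alternatives tried were scaling by median ratios or by upper quartiles, dropping the low-count filter, requiring 1 CPM in 3 libraries, DESeq2 1.42.0, limma-voom (limma 3.58.1), no robust estimation, a replicate block and leaving out each library.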

Additional observations from a re-analysis of the deposited data

How the results depend on the processing

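For the 43 tested fatty acid genes, 601 combinations of gene and alternative gave an adjusted p. Of these 580 kept the side of the threshold, 13 lost the call, 8 gained one and 0 called genes changed direction. Fasn, Scd1, Elovl1 and Acadl, which were not called in any setting, changed sign around 0 in some alternatives. The changes of call concerned 10 genes, named above with their values. All members risen numbered 9 to 10 and all fallen 18 to 20 over the settings that used every library, and 8 to 10 and 16 to 20 without 1 library. The count of risen uptake genes, 2, was 1 with the stricter filter and 1 to 2 without 1 library. Risen synthesis genes, 1, were 1 to 2 and fallen storage genes, 2, were 1 to 2 without 1 library. Fallen synthesis genes, 3, were 5 with DESeq2. In the further lists, fallen uptake genes were 0 to 1 and fallen synthesis genes 0 to 2 without 1 library. The Plin2 to Plin5 ratio rests on 0 to 6 Plin5 counts: its difference of 0.30 was -0.099 with a prior count of 0.5 and -0.34 to 0.74 without 1 library. With the replicate block 10 members rose and 18 fell, with no member's call changed. Among the further genes the block took the calls of Esrrg, Insig1, Nr1h3, Slc22a5 and Acad9 (adjusted p = 0.0522, 0.0632, 0.0617, 0.0741 and 0.0576) and added Slc27a3, Bscl2 and Pdk4 (0.0331, 0.0374 and 0.0463), so that 6 regulators rose and 4 fell. Replicate numbers gave no sign of pairing the libraries. Same-numbered deviations correlated at 0.0422, -0.0471 and -0.113, and differently numbered ones at -0.0649 to 0.108. With 3 libraries a group such values cannot settle whether same-numbered constructs shared a culture. Changes of 1.5-fold or less rest on 3 libraries a group, and Fabp4 and Plin5 are limited by their counts.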

Other observations

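Several genes outside the listed members, named here after their values were seen, showed large changes. Acsbg1, a synthetase of the bubblegum family, had 7.33, 9.18 and 15.0 CPM with vehicle and 43.6, 76.1 and 65.5 CPM with TNF-alpha, a rise of 5.87-fold (edgeR adjusted p = 0.0014). Mogat2, an acyltransferase of monoglycerides, went from 0.248 ± 0.0308 to 1.17 ± 0.0454 CPM (SD, n = 3; adjusted p = 7.75e-05). Scd3, a further desaturase gene, rose 1.94-fold to 4.38 ± 0.224 CPM (adjusted p = 0.000626), with reads that the Scd paralogs may share. Mlxipl, encoding the carbohydrate-responsive factor ChREBP, had 21 to 26 counts per vehicle library and 4 to 10 per TNF-alpha library (-1.80 ± 0.44, adjusted p = 0.00745). Esrra, an orphan receptor that acts with the co-activator encoded by Ppargc1a, rose 1.47-fold (adjusted p = 0.00011) in the constructs in which Ppargc1a fell.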
